A study of Mus musculus with 5 samples.

Results

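Heat shock and DnaJ chaperone genes were followed across the chromatin of striatal neurons. The genes were chosen by symbol, as those named Dnaja, Dnajb or Dnajc with a number, or Hspa, Hspb, Hspd, Hspe, Hsph or Hsp90, in the authors' region lists. The choice gave 73 genes, 44 Dnaj and 29 Hsp, of 18244 protein-coding genes with at least 1 listed region. The gene table holds 74 protein-coding genes with such symbols. Dnajb7 was the 1 with no listed region, as were 16 pseudogenes. Chromatin immunoprecipitation with sequencing was done on striatal nuclei of 8-week-old C57BL/6 mice that had been sorted on NeuN, a marker of neurons in general, and that the labels call medium spiny neurons. Neither a treatment nor an altered allele is named in the labels, and how many animals were pooled is not given in the sources used here. There was 1 library each for H3K4me3, H3K27ac, RNA polymerase II (Pol II) and H3K27me3, and 1 input library, to which the authors compared the others.

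The lists hold regions within a stated window of 3 kb either side of a transcription start site, each with a score that the authors gave for the region over input. With 1 library per antibody there is no replicate check and no test, and all comparisons are descriptions of these libraries. The lists held 13142 H3K4me3, 9781 H3K27ac, 7799 Pol II and 8219 H3K27me3 regions, and read depth is unknown. No listed score was below 2, so a gene without a region may have carried a weaker signal. All 8 medium spiny neuron markers examined had H3K4me3, H3K27ac and Pol II, and Adora2a, Drd1 and Drd2 among them also had H3K27me3. Of 4 general neuron markers, Elavl4 had H3K27me3 and no listed Pol II, and the other 3 had the active marks alone. Of 16 markers of astrocytes, oligodendrocytes, microglia and vessels, Mbp alone had H3K27ac and Pol II.

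Chaperones bind unfolded proteins and hold, fold or hand them on. Hsp70 proteins (the Hspa genes) bind and release their clients by a cycle of ATP hydrolysis, DnaJ proteins bring clients and start that hydrolysis, and Hsp110 and other factors exchange the nucleotide. Hsp90 acts on partly folded kinases and receptors, small heat shock proteins (Hspb) hold unfolded proteins without ATP, and Hsp60 with Hsp10 folds proteins in mitochondria. Some of these genes are switched on by heat shock factor 1 when proteins unfold, some are made in every cell at all times, and others are made mainly in testis, muscle or endothelium. H3K4me3 marks promoters, H3K27ac marks active promoters and enhancers, and H3K27me3, made by Polycomb proteins, marks silent developmental genes.

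Most chaperone genes carried the marks of active promoters. H3K4me3 was listed at 65 of the 73 genes (89.0%), against 78.8% of all coding genes with any listed region and 68.4% of all coding genes. H3K27ac was listed at 58 (79.5%), against 59.3% and 51.5% by the same 2 measures. Pol II was listed at 54 (74.0%), against 48.1% and 41.7%. H3K27me3 was listed at 21 (28.8%), against 48.9% and 42.5%. The active marks were thus listed at a larger share of chaperone genes than of coding genes, and H3K27me3 at a smaller one.

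The 73 genes fell into 6 combinations of marks. H3K4me3, H3K27ac and Pol II without H3K27me3 were listed at 47 genes (64.4%), against 40.1% of coding genes with any region. All 4 antibodies had a region at 7 genes (9.59%), against 6.84%. H3K4me3 with H3K27me3 and nothing else was listed at 6 (8.22%), against 15.5%. H3K27me3 alone was listed at 8 (11%), against 21.0%. Dnajc12, Dnajc15, Dnajc28 and Hspbp1 had H3K4me3 and H3K27ac, and Hspb7 had H3K4me3 alone.

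**Figure D1:**
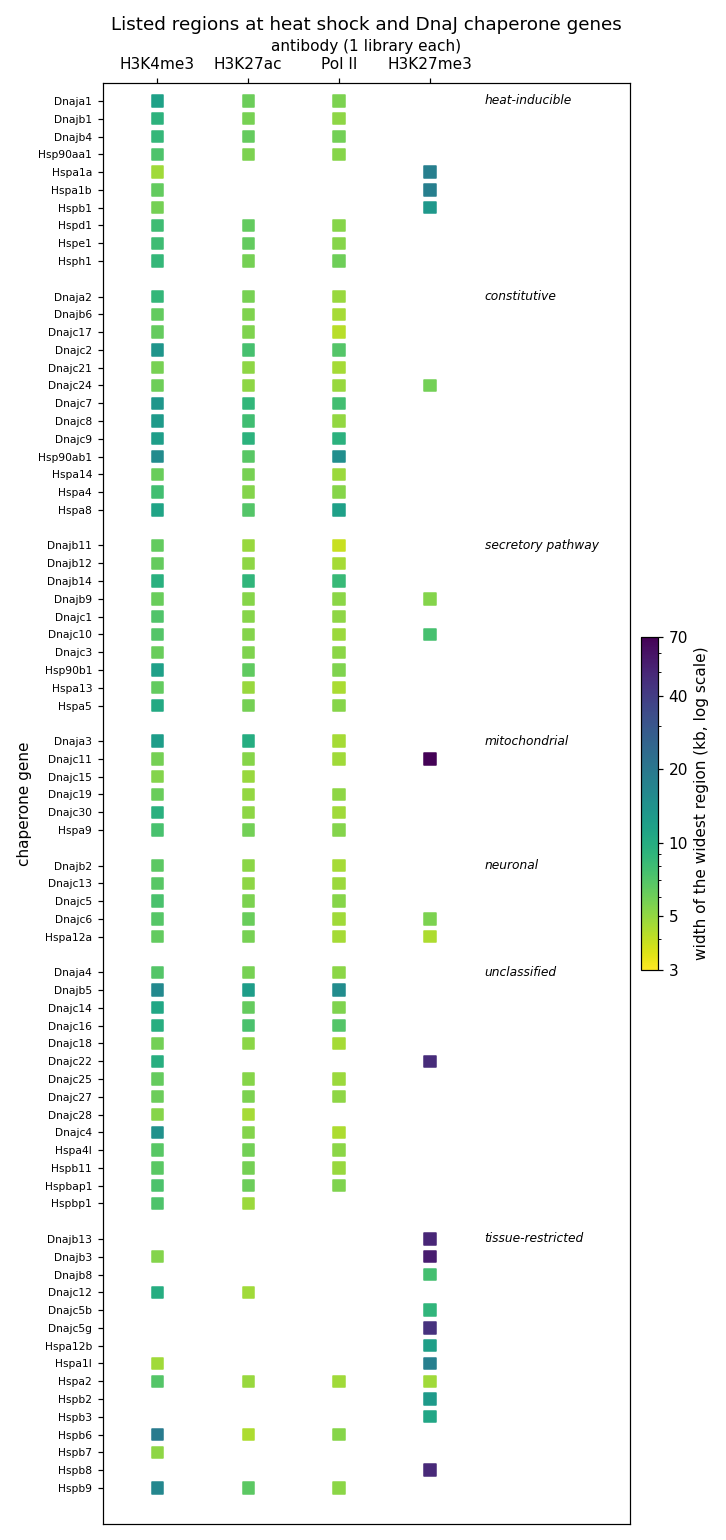
Regions listed at each of the 73 chaperone genes (rows, grouped by textbook role) for each antibody (columns), a filled square marking a listed region and its colour the width of the gene's widest region in kb on a log scale. H3K27me3 squares stand at 11 of the 15 tissue-restricted genes, and at Hspa1a, Hspa1b and Hspb1 of the heat-inducible genes. They also stand at Dnajb9, Dnajc10, Dnajc11, Dnajc24, Dnajc6, Hspa12a and Dnajc22, outside those classes.

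Where chaperone genes carried a mark, the median rank of their regions was higher than over coding genes for all 4 antibodies. The median width at chaperone genes was 7.1 kb for H3K4me3, 5.65 kb for H3K27ac and 5.15 kb for Pol II, against 6.6, 5.3 and 4.9 kb over coding genes with each mark. The median rank, as the share of the list's regions with a lower score, was 70.9% for H3K4me3, 62.1% for H3K27ac and 64.1% for Pol II at chaperone genes, against 53.9%, 50.7% and 50.6% over coding genes. For H3K27me3 the median rank was 73.1% at chaperone genes, against 58.9% over coding genes, and the median width 12.8 kb, against 15.9 kb. Some promoters were shared. Of the 65 genes with H3K4me3, 23 shared that region with a gene outside the group. Examples are Dnajc7 with Nkiras2 and Dnajc2 with the proteasome gene Psmc2. Where a region is shared, it is not shown to which gene the mark belongs. The same share was not counted over coding genes, so no comparison is made.

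To compare inducible, constitutive and tissue-restricted genes, 59 of the 73 were placed in 6 classes by their known roles. The other 14 were left unclassified. The classes were chosen with earlier results of these data known, so contrasts between them cannot be taken as independent of the marks. All 44 classified genes outside the tissue-restricted class had H3K4me3, against 78.8% of coding genes with any listed region. Pol II was listed at 7 of 10 heat-inducible genes, 13 of 13 constitutive genes and 10 of 10 secretory pathway genes. It was listed at 5 of 6 mitochondrial, 5 of 5 neuronal and 3 of 15 tissue-restricted genes. The share over coding genes with any listed region was 48.1%. H3K27me3 was listed at 11 of 15 tissue-restricted genes and 1 of 13 constitutive genes, against 48.9% of coding genes with any listed region. Between these ends it was listed at 2 of 5 neuronal, 3 of 10 heat-inducible, 2 of 10 secretory pathway and 1 of 6 mitochondrial genes. The order between the ends was not the reverse of that for Pol II. The heat-inducible class was split, and its members either had all 3 active marks or none of H3K27ac and Pol II.

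**Figure D2:**
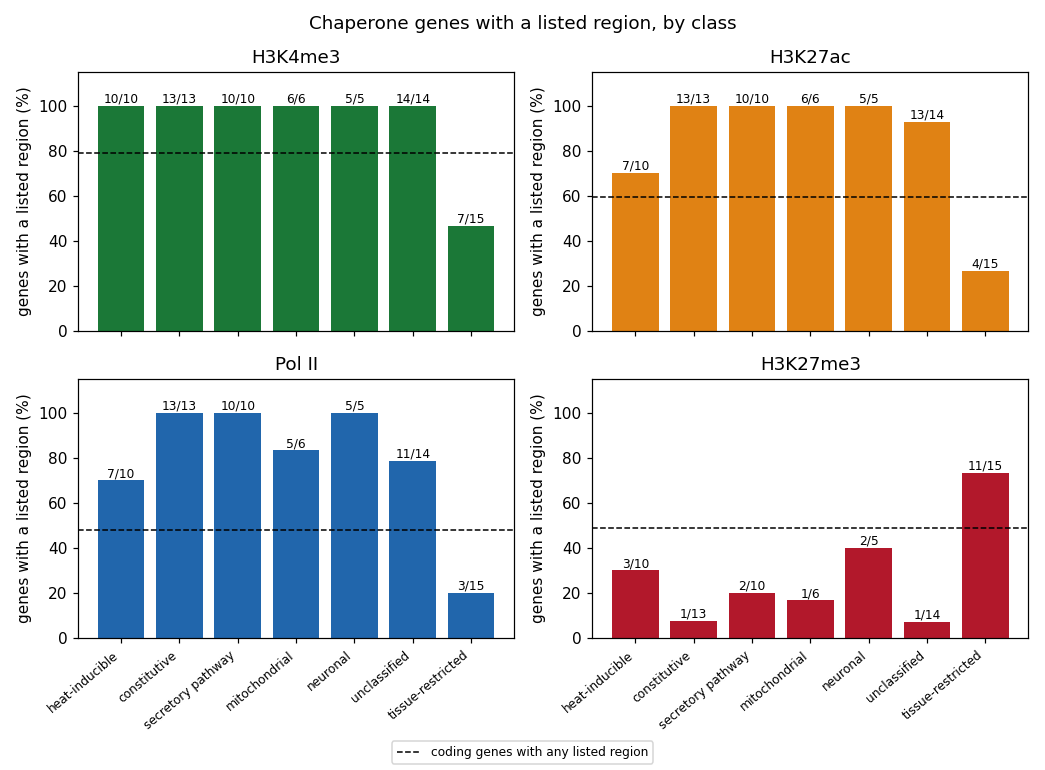
Share of each class of chaperone genes with a listed region (bars, percent, with the number of genes listed over the number in the class), one panel per antibody, beside coding genes with any listed region (dashed line). Tissue-restricted genes stand below the line for H3K4me3 (7 of 15), H3K27ac (4 of 15) and Pol II (3 of 15), and above it for H3K27me3 (11 of 15).

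The inducible Hsp70 genes and Hspb1 carried H3K4me3 and H3K27me3, with neither H3K27ac nor Pol II listed. Hspa1a and Hspa1b encode the inducible cytosolic Hsp70, which cells make in large amounts after heat shock, and Hspb1 encodes the small heat shock protein Hsp27. An 18.1 kb H3K27me3 region on chromosome 17 (mm9, 35091701 to 35109800) scored 4.67 and took in Hspa1b, Hspa1a and their testis-expressed neighbour Hspa1l. A pair of narrower H3K4me3 regions lay along it. The region of Hspa1b (35092701 to 35099100) scored 4.01 and lay wholly inside the H3K27me3 region. The region shared by Hspa1a and Hspa1l (35106501 to 35111200) scored 2.22 and had 70.2% of its length inside. Both ranked low, with 17.2% of the H3K4me3 list below the region of Hspa1b and 3.56% below that of Hspa1a.

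Hspb1 showed the same arrangement at a separate locus. Its H3K4me3 region on chromosome 5 (mm9, 136361201 to 136367000) was 5.8 kb wide and scored 3.15, with 11.3% of the list lower. It lay inside a 13.1 kb H3K27me3 region that scored 8.45, above 94.2% of the H3K27me3 list, and that reached 2700 bp beyond it on one side and 4600 bp on the other. In flies the uninduced Hsp70 gene is the classic case of a paused polymerase, but no Pol II region was listed at these mouse genes. Hspa1a and Hspa1b are nearly identical copies, so reads that map to both could have been dropped or split, and how they were handled is not given in the sources used here.

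The other 7 heat-inducible genes had H3K4me3, H3K27ac and Pol II without H3K27me3. Hspd1 and Hspe1, which encode Hsp60 and Hsp10 and are read in opposite directions, shared 1 region of each antibody. Their H3K4me3 region scored 14.4, the highest of all chaperone genes and above 99.7% of the list, with 7.09 for H3K27ac and 3.77 for Pol II. Dnajb4, a J-protein partner of Hsp70, had 2 promoters listed 8.6 kb and 8.5 kb wide, and the stronger one, shared with Fubp1, scored 11.5 for H3K4me3, 9.13 for H3K27ac and 5.34 for Pol II. The promoter of its other transcript, with no other gene listed, scored 9.04, 3.84 and 2.95.

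Further inducible genes had similar values. Dnaja1, another J-protein, scored 9.71 for H3K4me3, 7.85 for H3K27ac and 5.06 for Pol II. Hsp90aa1, the inducible cytosolic Hsp90, scored 7.96, 6.53 and 4.63 in the same order. Hsph1, the Hsp110 nucleotide exchange factor, scored 10.6, 5.89 and 4.55, and Dnajb1, the Hsp40 that works with inducible Hsp70, scored 7.83, 4.37 and 3.71. All 7 genes therefore had Pol II although the labels name no stress.

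These 7 genes stood high in the Pol II list. By each gene's highest-scoring region, their Pol II scores were above 83.5% to 98.3% of that list, with a median of 94.9%, whereas the 13 constitutive genes ran from 3.39% to 99.6% with a median of 48.2%. For H3K27ac the median ranks were 87.8% for the 7 inducible genes and 61.9% for the constitutive genes. For H3K4me3 they were 90.1% for the 7 inducible genes and 74.1% for the constitutive genes, and over all 10 heat-inducible genes, Hspa1a, Hspa1b and Hspb1 included, the median was 72.5%. Hspd1 and Hspe1 share 1 region of each antibody, which was counted for both genes in each median. The value for Dnajb4 rests on the promoter shared with Fubp1, and the Pol II region of its other promoter stood above 58% of the list. By highest-scoring region, the 7 genes were at the upper end of the Pol II list, and the constitutive genes were spread over its range.

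**Figure D3:**
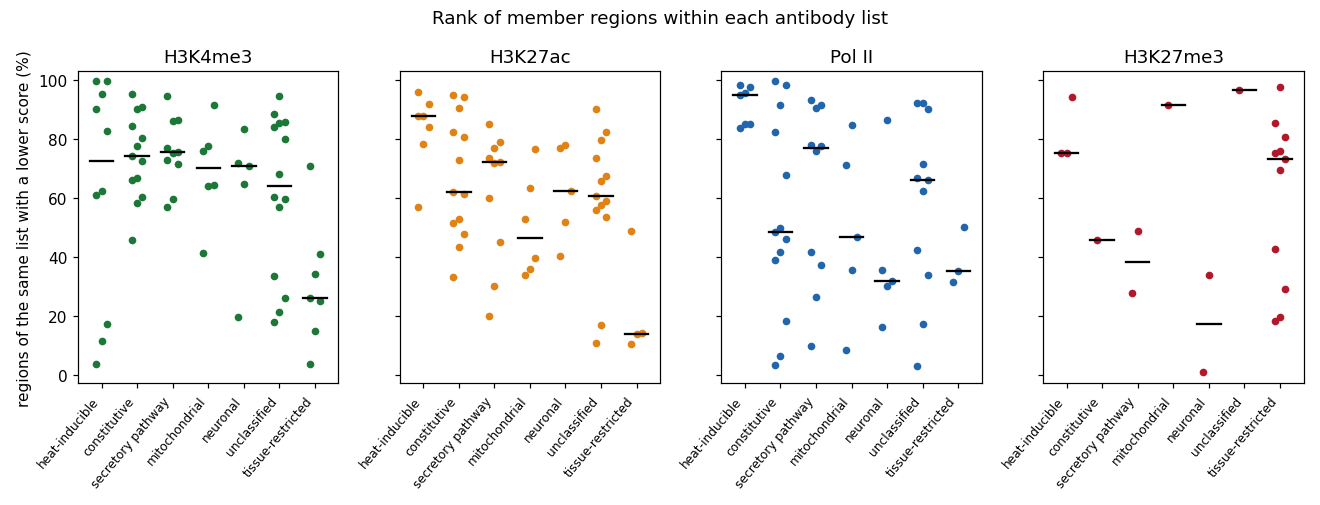
Rank of each gene's highest-scoring region within its antibody's list (points, percent of the list's regions with a lower score), by class of chaperone gene, with the class median (bar). In the Pol II panel the 7 heat-inducible genes with a region all lie above 83%, while the 13 constitutive genes run from 3.39% to 99.6%.

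The promoters of heat-inducible genes are shown for the letters that heat shock factors bind. Heat shock factor 1 binds inverted repeats of GAA, each of which is called a unit here. The search took 2 adjoining units, GAANNTTC or TTCNNGAA, and 3 adjoining units, which are GAA, TTC and GAA in turn or the reverse complement TTC, GAA and TTC, with any 2 bases between neighbours. Each form of 2 units is its own reverse complement, so both strands were covered, and every match to 3 units holds matches to 2. Promoters are RefSeq sequences of build GRCm38.p6, a later build than that of the regions, from 250 bases before to 50 bases after the start site, and 59 of the 73 genes had at least 1. The first 3 below are those with H3K27me3 and the last 2 are from genes with H3K27ac and Pol II, printed 5′ to 3′ with matches to 2 or more units in capitals.
Hspa1a (chr17:34972107-34972406, minus strand): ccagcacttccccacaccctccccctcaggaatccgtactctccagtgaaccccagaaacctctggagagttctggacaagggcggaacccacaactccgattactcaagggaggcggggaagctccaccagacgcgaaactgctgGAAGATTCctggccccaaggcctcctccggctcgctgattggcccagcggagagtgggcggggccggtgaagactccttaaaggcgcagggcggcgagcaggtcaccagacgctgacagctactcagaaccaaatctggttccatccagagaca
Hspa1b (chr17:34959189-34959488, minus strand): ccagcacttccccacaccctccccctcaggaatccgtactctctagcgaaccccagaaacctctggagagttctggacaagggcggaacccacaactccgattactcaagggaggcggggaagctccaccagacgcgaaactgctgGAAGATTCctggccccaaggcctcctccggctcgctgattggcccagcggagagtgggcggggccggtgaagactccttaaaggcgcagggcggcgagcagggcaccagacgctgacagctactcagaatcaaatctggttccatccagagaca
Hspb1 (chr5:135887669-135887968, plus strand): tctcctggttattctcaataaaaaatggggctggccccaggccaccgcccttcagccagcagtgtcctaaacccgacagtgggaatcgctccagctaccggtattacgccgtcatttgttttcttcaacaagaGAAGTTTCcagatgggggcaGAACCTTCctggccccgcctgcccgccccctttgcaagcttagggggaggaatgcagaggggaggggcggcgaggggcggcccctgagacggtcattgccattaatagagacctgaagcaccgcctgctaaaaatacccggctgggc
Hspe1 (chr1:55087898-55088197, plus strand): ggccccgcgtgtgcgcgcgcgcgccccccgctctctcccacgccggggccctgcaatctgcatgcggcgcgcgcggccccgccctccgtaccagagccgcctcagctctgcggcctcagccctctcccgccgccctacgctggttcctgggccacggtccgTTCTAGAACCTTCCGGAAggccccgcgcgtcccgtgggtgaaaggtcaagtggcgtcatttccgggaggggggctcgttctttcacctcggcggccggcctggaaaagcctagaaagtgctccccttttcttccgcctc
Hsph1 (chr5:149636266-149636565, minus strand): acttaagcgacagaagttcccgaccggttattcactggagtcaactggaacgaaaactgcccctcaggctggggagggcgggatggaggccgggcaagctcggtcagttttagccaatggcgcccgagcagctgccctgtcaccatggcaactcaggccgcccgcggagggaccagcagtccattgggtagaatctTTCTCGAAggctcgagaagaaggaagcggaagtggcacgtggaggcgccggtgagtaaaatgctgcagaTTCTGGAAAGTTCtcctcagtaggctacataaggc

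Units were found in promoters of both states. The Hspa1a and Hspa1b windows hold GAAGATTC at 104 bases before the start site and are 98.7% identical over 300 aligned positions. Hspb1 has 2 separate pairs of units, GAAGTTTC and GAACCTTC. Hspe1 holds 3 overlapping pairs that make 2 matches to 3 units, in the stretch it shares with Hspd1, and Hsph1 holds 1 match to 3 units just after the start site. By gene, 8 of the 9 heat-inducible genes with a promoter had 2 units in at least 1 window, against 4587 of all 27025 genes. Dnajb1 had none in either of its windows. By promoter it was 9 of 15 (60.0%), against 15.1% of all 32851 promoters. These 9 windows are not all separate. Those of Hspa1a and Hspa1b are nearly identical, Hspd1 and Hspe1 share a stretch, and Hsph1 counts more than once. Tissue-restricted genes had 2 units in 4 of 13 promoters (30.8%) and constitutive genes in 2 of 12 (16.7%). Matches to 3 units were in 4 of the 15 heat-inducible promoters (26.7%), against 0.603% of all promoters, and these 4 windows come from 2 loci, the stretch shared by Hspd1 and Hspe1 and the start of Hsph1. Both windows of the constitutive gene Dnajb6 also held 3 units. A match is a run of letters and does not show binding, and no match says nothing of sites outside the window.

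Constitutive chaperones of the cytosol and nucleus all carried H3K4me3, H3K27ac and Pol II, and 12 of 13 had no H3K27me3. The 3 active marks without H3K27me3 were listed at 40.1% of coding genes with any region. Hspa8 (Hsc70) and Hsp90ab1, the Hsp70 and Hsp90 that cells make without stress, had the widest Pol II regions of the class. Hsp90ab1 had Pol II over 14.9 kb with a score of 6.55, the highest Pol II score of all 73 genes and above 99.6% of the list, with H3K4me3 over 15.5 kb and H3K27ac over 6.8 kb. The H3K4me3 and Pol II regions were also listed for its neighbour Slc35b2, and the H3K27ac region was not. At Hspa8, Pol II covered 11.8 kb with a score of 5.32, beside H3K4me3 over 11.1 kb and H3K27ac over 7.0 kb. A Pol II region wider than 10 kb was listed at 3 of the 54 chaperone genes with Pol II, against 3.27% of coding genes with Pol II, and the third was Dnajb5 (15.4 kb).

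The other constitutive genes had lower Pol II scores than these 2, several of them near the listing threshold. Dnajc21, which works in ribosome assembly, scored 2.05 for Pol II, Dnajc17 scored 2.09 and Dnajb6, which holds back protein aggregation, scored 2.27. Their H3K4me3 scores were 8.21, 8.74 and 9.86, above the 7.05 of the median region of that list. Dnajc2, the ribosome-associated zuotin, scored 4.17 for Pol II, and Hspa4, an Hsp110 relative, scored 3.65. Dnajc7, Dnajc8, Dnajc9 and Hspa14 scored between 2.59 and 2.77. They shared their regions with neighbours, as did Dnajc17, Dnajb6 and Dnajc2. Dnaja2 scored 3.19 with no other gene listed. Dnajc24, a gene of diphthamide synthesis, was the 1 constitutive gene with H3K27me3, in a 5.9 kb region that scored 3.09.

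Genes of the secretory pathway, several of which rise when proteins unfold in the endoplasmic reticulum, all had the 3 active marks. Hspa5 (BiP), the Hsp70 of that compartment, had H3K4me3 over 10.4 kb with a score of 11.4, H3K27ac at 4.54 and Pol II at 3.43. Hsp90b1 (Grp94), its Hsp90, scored 8.99, 5.95 and 4.11 in the same order, in regions also listed for Ttc41. Dnajb9 (ERdj4), a BiP partner that is itself induced by unfolded proteins, scored 10.1, 5.32 and 4.17. Dnajb14, a membrane J-protein, had the highest Pol II score of the class, 4.33, in regions shared with the histone variant gene H2az1. The median Pol II rank of the class was 76.8%, with Dnajb11 (2.14) and Dnajb12 (2.40) at the low end.

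The promoter of Hspa5 is shown for the endoplasmic reticulum stress element, which is CCAAT, any 9 bases and CCACG. NF-Y binds its CCAAT, and Atf6 its CCACG. The search covered both strands and was chosen after the values of these genes had been seen. The sequence is from the same RefSeq table and build, with the match in capitals.
Hspa5 (chr2:34771840-34772139, plus strand): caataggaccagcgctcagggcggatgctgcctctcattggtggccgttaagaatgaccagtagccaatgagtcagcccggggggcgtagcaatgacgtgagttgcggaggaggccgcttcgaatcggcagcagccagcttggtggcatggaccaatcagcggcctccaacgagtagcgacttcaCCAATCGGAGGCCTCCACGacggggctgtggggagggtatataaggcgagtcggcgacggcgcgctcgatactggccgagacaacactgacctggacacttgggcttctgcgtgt

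The match at Hspa5 begins 65 bases before the start site. This element was found in 3 of 9 secretory pathway promoters, those of Hspa5, Hsp90b1 and Dnajc3, and in 0.119% of all promoters. No other chaperone promoter in the table held it. CCAAT alone was in 29 of 76 chaperone promoters (38.2%), close to the 37.4% of all promoters, and TATAAA was in 4 of the 76 (5.26%), against 13.6%.

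The mitochondrial class leaves out Hspd1 and Hspe1, which were placed with the heat-inducible genes. H3K4me3 and H3K27ac regions were listed at each of its 6 genes, as at each constitutive gene. Pol II regions were listed at 5 of 6, against 13 of 13. The median ranks were 70.1% for H3K4me3 and 46.8% for Pol II, against 74.1% and 48.2% for constitutive genes. For H3K27ac the median rank was lower, 46.2% against 61.9%. Hspa9 (mortalin), the mitochondrial Hsp70, scored 8.10 for H3K4me3, 5.71 for H3K27ac and 3.76 for Pol II. Dnajc19, a J-protein of the import motor, scored 8.06, 3.45 and 3.28, and Dnaja3 (Tid1) scored 9.20, 3.61 and 2.13 in regions shared with Coro7. Dnajc30 scored 9.03, 4.16 and 2.72, shared with Bud23. Dnajc15, a J-protein of the inner membrane, had H3K4me3 (6.40) and H3K27ac (3.38) and no listed Pol II. Dnajc11 had the 3 active marks and the widest H3K27me3 region of all 73 genes, 68.7 kb, which was also listed for Camta1.

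Chaperones with neuronal roles had the active marks, with a lower median rank for Pol II than for H3K4me3 and H3K27ac. Dnajc5, the cysteine string protein of synaptic vesicles, scored 9.75 for H3K4me3, 5.85 for H3K27ac and 3.85 for Pol II, and no other gene of this class scored as high for Pol II. Dnajc13, an endosomal J-protein, scored 8.13, 3.64 and 2.55, and Dnajb2 scored 4.28, 4.11 and 2.46. The median ranks of the 5 genes were 70.7% for H3K4me3 and 62.3% for H3K27ac. For Pol II the median rank was 31.9%, with Hspa12a lowest at 16.2%.

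Dnajc6, which encodes auxilin, the J-protein that strips clathrin from vesicles, had 3 separate H3K4me3 promoters. The strongest (mm9, chromosome 4, 101178101 to 101185000) scored 8.69 for H3K4me3, 5.74 for H3K27ac and 2.48 for Pol II. The most upstream one (101166601 to 101172700) scored 6.96 and 2.66 for H3K4me3 and H3K27ac, had no listed Pol II, and carried a 5.6 kb H3K27me3 region that covered 91.8% of its H3K4me3 region. The most downstream one scored 5.70, 3.02 and 2.01. The H3K27me3 of this gene was thus listed at the 1 promoter of the 3 without Pol II.

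Unclassified genes were mostly active. Of these 14, 11 had H3K4me3, H3K27ac and Pol II without H3K27me3, against 40.1% of coding genes with any region. Dnajb5 had the widest Pol II region of the whole group, 15.4 kb, with H3K4me3 over 15.8 kb and H3K27ac over 12.3 kb, and no other gene was listed with it. Dnaja4 (4.24) and Dnajc14 (4.23) had the highest Pol II scores among the 14. Hspb11, which is named as a small heat shock protein but encodes a part of the intraflagellar transport complex, scored 9.97 for H3K4me3 in a region shared with Lrrc42. Dnajc22 had H3K4me3 (4.49) inside a 47.6 kb H3K27me3 region that scored 9.84 and was also listed for C1ql4 and Troap.

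H3K27me3 was listed at 11 of the 15 tissue-restricted genes (73.3%), against 48.9% of coding genes with any region. Dnajc12, Hspb6, Hspb7 and Hspb9 had none. H3K27me3 was the only mark at 8 of the 15, against 21.0% of coding genes with any region. These were Dnajb13, Dnajb8, Dnajc5b, Dnajc5g, Hspa12b, Hspb2, Hspb3 and Hspb8. No chaperone gene of another class had H3K27me3 alone. Dnajc5g, a testis form of the cysteine string protein, had the highest H3K27me3 score of the 73 genes, 10.6 over 44.9 kb, in a region also listed for Slc30a3 and Trim54. Hspb8, a small heat shock protein enriched in muscle, had 48.5 kb with a score of 6.02 and no other gene listed. Hspa12b, a distant Hsp70 relative of endothelium, had 12 kb with a score of 5.31.

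Several of these regions were shared with neighbours or lay near the threshold. Dnajb13, a protein of the sperm flagellum, lay in a 49.7 kb region (4.73) with the mitochondrial carriers Ucp2 and Ucp3. Hspb2, a muscle small heat shock protein, shared 12.8 kb (4.19) with Cryab, the small heat shock protein gene beside it. Hspb3, also of muscle, had 10.8 kb (3.00). The testis genes Dnajb8 (7.7 kb, 2.37) and Dnajc5b (8.9 kb, 2.41) had the lowest H3K27me3 scores of the 8.

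The rest of the tissue-restricted class had H3K4me3. Hspa1l and Dnajb3, both of testis, had H3K4me3 beside H3K27me3, with Pol II and H3K27ac both unlisted. At Dnajb3 the H3K4me3 region, shared with Ugt1a2, overlapped the ends of 2 H3K27me3 regions, 44.3 kb and 54.7 kb wide. Hspa2, a testis Hsp70, carried all 4 marks, with a high H3K4me3 score (8.62) and low scores for H3K27ac (2.58), Pol II (2.48) and H3K27me3 (2.63). Dnajc12, a partner of the aromatic amino acid hydroxylases, had H3K4me3 over 10 kb (4.91) and 2 H3K27ac regions (2.60 and 2.36). Hspb7, a small heat shock protein of heart, had H3K4me3 alone (3.70).

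Hspb6 and Hspb9 were the 2 tissue-restricted genes with the 3 active marks and no H3K27me3, and both lay in regions shared with other genes. Hspb6 (Hsp20, of muscle) had a 19.0 kb H3K4me3 region, the widest of the 73 genes, also listed for Psenen, Lin37, U2af1l4, Igflr1 and Proser3. Its H3K27ac (2.45) and Pol II (2.54) regions were also listed for Proser3. Hspb9, of testis, shared a 16.3 kb H3K4me3 region with Kat2a and Dhx58, and its H3K27ac (3.98) and Pol II (2.78) regions with Kat2a.

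The 13 genes with both H3K4me3 and H3K27me3 (17.8%, against 27.9% of coding genes with any region) differed in how the 2 regions lay. In 7 of them at least 50% of the H3K4me3 region was covered by the 1 H3K27me3 region with the largest overlap, against 64.3% of the 5090 coding genes with both. These were Hspb1, Hspa1b, Dnajc22, Dnajc6, Hspa1a, Hspa1l and Hspa2. At the other 6 the regions met at an edge, with 40.7% covered at Dnajb3, 24.2% at Dnajb9, 16.7% at Dnajc24, 14.3% at Dnajc10, 10.3% at Dnajc11 and 4.69% at Hspa12a. Dnajb3 was met at both edges, and its 2 H3K27me3 regions together covered 53.7%, which puts it past 50%. With all of a gene's regions counted, 8 of the 13 reached 50%, against 65.0% of coding genes with both. The other 5 with less cover all had H3K27ac and Pol II. Of the 7 with more cover, Dnajc6 and Hspa2 had them. At Dnajc6 the covered promoter had H3K27ac and no listed Pol II, and the Pol II of the gene was listed at its other promoters.

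Dnajb9 and Dnajc10 illustrate the edge arrangement. At Dnajb9 (chromosome 12) the 5.4 kb H3K27me3 region shared 1500 bp with the 6.2 kb H3K4me3 region and reached 3900 bp past it. At Dnajc10 (ERdj5, an endoplasmic reticulum reductase) a 7.6 kb H3K27me3 region began 6600 bp before the H3K4me3 region and shared 1000 bp with it. Hspa12a, a brain-enriched Hsp70 relative, shared 300 bp, and its H3K27me3 score of 2.02 was close to the lowest listed.

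**Figure D4:**
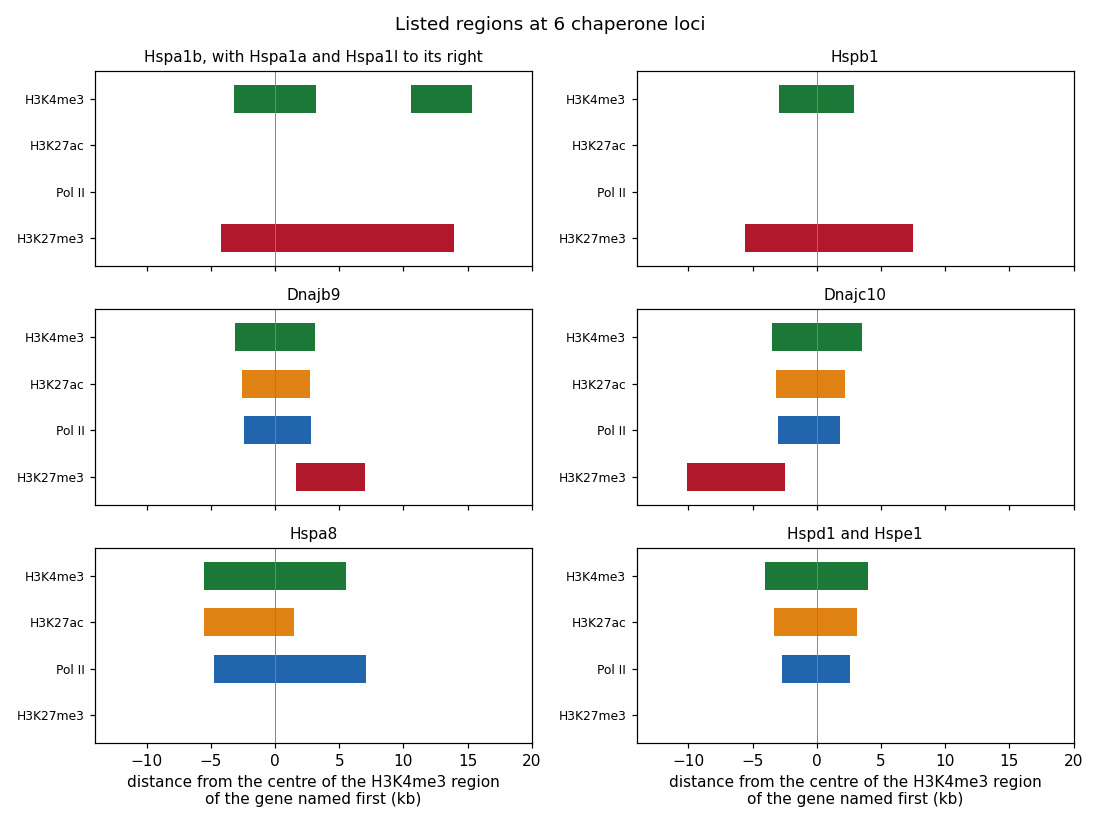
Listed regions of each antibody (bars) at 6 chaperone loci, drawn to scale as distance in kb from the centre of the H3K4me3 region of the gene named first. H3K27me3 spans the H3K4me3 regions of Hspa1b and Hspb1 with no H3K27ac or Pol II, meets the edge of H3K4me3 at Dnajb9 and Dnajc10, and is not listed at Hspa8 or at Hspd1 and Hspe1.

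CpG content, which the choice of genes did not use, also differed between classes and between combinations of marks. In the 300-base windows, averaged over a gene's promoters, the median was 23.0 CpG for the 59 chaperone genes with a promoter, against 14 for coding genes. Medians were 28.5 for heat-inducible, 25.0 for constitutive, 28.0 for secretory pathway and 13.0 for tissue-restricted genes. Mitochondrial genes had a median of 19.0, neuronal genes 22.2 and unclassified genes 26.0. Within the heat-inducible class, Hspb1 (14), Hspa1a (15) and Hspa1b (16) had the 3 lowest means, and Hsph1 (18.5) the lowest mean of the genes with Pol II. Single windows did not keep this order. Dnajb4, which had Pol II, had windows of 13 and 44 CpG. Across the group, the 44 genes with H3K4me3, H3K27ac and Pol II had a median of 25.5 and the 11 with H3K27me3 and no Pol II a median of 14. The ranges overlapped, from 7 (Dnajc24) to 44 with the active marks and from 8 to 19 with H3K27me3 and no Pol II. Of the 44 genes, the 6 that also had H3K27me3 had a median of 17.5, and the 38 without it 26.5. Low counts were not particular to H3K27me3. The 3 genes with only H3K4me3 and H3K27ac had a median of 15, and Hspb7, with H3K4me3 alone, had 6.

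**Figure D5:**
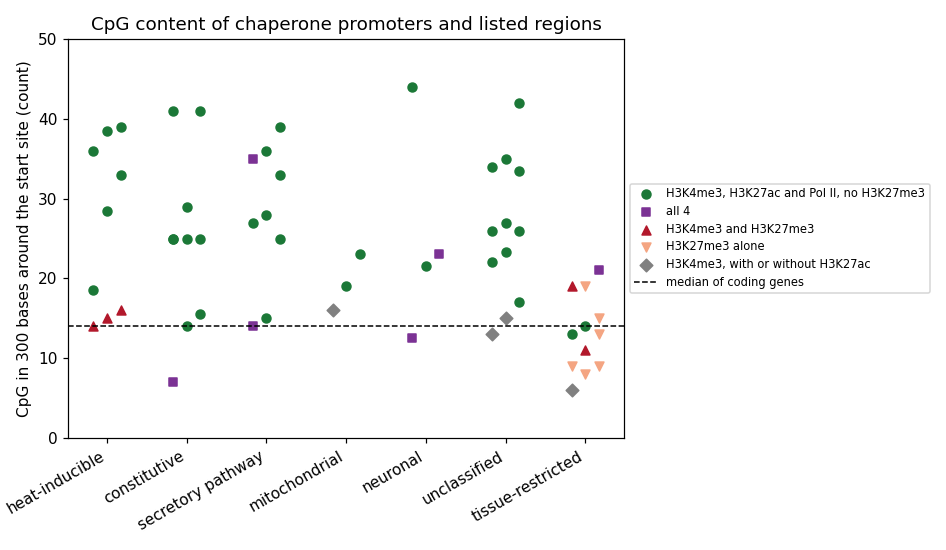
CpG count in the 300-base promoter window (mean over a gene's promoters) for the 59 chaperone genes with a promoter sequence, by class, with colour and shape giving the antibodies listed, beside the median of coding genes (dashed line). By this mean Hspa1a, Hspa1b and Hspb1, with counts from 14 to 16, lie below the other heat-inducible genes, although 1 window of Dnajb4 held 13.

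Genes that work with these chaperones were described from a list of 44 factors, co-chaperones and chaperonin subunits. H3K4me3 was listed at 41 of them (93.2%), against 78.8% of coding genes with any region, and H3K27ac at 40 (90.9%), against 59.3%. Pol II was listed at 35 (79.5%), against 48.1%, and H3K27me3 at 11 (25.0%), against 48.9%. The 3 active marks without H3K27me3 were listed at 30 (68.2%), against 40.1%. Hsf1, the main heat shock factor, scored 12.8 for H3K4me3, 4.15 for H3K27ac and 3.22 for Pol II. Hsf2 and Hsf4 also had the 3 active marks, each with a narrow H3K27me3 region (4.0 and 4.9 kb). All subunits of the cytosolic chaperonin, Tcp1 with Cct2, Cct3, Cct4, Cct5, Cct6a, Cct7 and Cct8, had the 3 active marks. Cct5 also had a narrow H3K27me3 region (3.5 kb, 2.06). Cct6b, a testis form, had H3K4me3 (9.72) and H3K27ac (3.37), no listed Pol II, and H3K27me3 over 9.8 kb.

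Bag3 was the 1 gene of the list with the marks of Hspa1a and Hspb1. This gene, a stress-induced partner of Hsp70 and of small heat shock proteins, had H3K4me3 (4.72) beside H3K27me3 (5.32), with Pol II and H3K27ac both unlisted. Serpinh1, the collagen chaperone Hsp47, had H3K27me3 alone (4.25), as had the small heat shock protein genes Cryaa (3.73) and Cryab (4.19), the last in the region of Hspb2. Among partners of Hsp90, Stip1, Ahsa1, Fkbp4 and Ptges3 had the 3 active marks without H3K27me3, Chordc1 had them with an 11.8 kb H3K27me3 region, and Cdc37, which brings kinases to Hsp90, had no listed Pol II.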

How the data were processed

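The authors' deposited files list regions, 1 list per antibody, each region paired with a RefSeq transcript, a gene symbol and a score over input, whose scale is not given in the sources used here. The build mm9 and the tools MACS 1.4 and Bowtie 0.12.7 are named per the submitters' processing notes, which here give neither their role nor their order. Depth is not known from these files. Positions are mm9, counted from 1. Bounds lay on a 100 bp grid and no region was narrower than 2500 bp.

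Transcripts were matched to genes of GRCm38.p6 by accession, then by symbol, and 0.341% of lines had no gene. All 73 chaperone genes matched. Any region listed for a gene counted as the gene carrying that mark. Where a gene had several, the widest gave the width and the highest score was taken. Scores were used to describe and rank regions within 1 list. Groups came from the antibody in the labels. The members, classes and lists were chosen with earlier results of these data known. Every member is accounted for, with values for the named classes, for genes with H3K27me3, and for the highest scores and widest regions. No p-value was computed. Counting and overlaps were tested on simulated regions. Python 3.11.15, pandas 2.3.3, numpy 2.4.6, biopython 1.88 and matplotlib 3.10.9 were used.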

Additional observations from a re-analysis of the deposited data

How the results depend on the processing

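Keeping the upper 50% of each list by score left Pol II at 29 chaperone genes, H3K27me3 at 12, and H3K4me3, H3K27ac and Pol II without H3K27me3 at 26. It left Pol II at 5 of the 13 constitutive genes and H3K27me3 at 7 of the 15 tissue-restricted genes. All 7 heat-inducible genes with Pol II kept it, which their ranks above 50% of that list had already fixed. The shares of coding genes under the same cut were not counted. When regions of both marks had to share 50% or more of the narrower one, 7 genes had H3K4me3 with H3K27me3 in place of 13. Counting all H3K27me3 regions of a gene together, a choice made after seeing the data, gave 8 genes with at least 50% of H3K4me3 covered in place of 7, by adding Dnajb3. Lists limited to 7799 regions each, counts of distinct regions, the group without Hspbp1 and Hspbap1, and the highest-scoring in place of the widest region left the values they were applied to within 1.5 times of the counts, or within 0.1 kb for widths. Some of these outcomes were fixed in advance. The Pol II list holds 7799 regions, so its counts could not change under that limit. Hspbp1 and Hspbap1 are unclassified, so leaving them out could not change a class count. No paired analysis was possible because each antibody has 1 library, and no library could be left out. Depth is unknown, so a missing region was not detectable above the listing threshold and is not shown to be absent.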

Other observations

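Grouped by protein family, 8 genes are named as small heat shock proteins, of which Hspb11 encodes a part of intraflagellar transport. H3K27me3 was listed at 4 of the 8 (50%), close to the 48.9% of coding genes with any region, alone at Hspb2, Hspb3 and Hspb8 and with H3K4me3 at Hspb1. Pol II was listed at 3 of the 8 (37.5%), against 48.1% of coding genes, namely Hspb6, Hspb9 and Hspb11, each in a region shared with a gene outside the group. Without Hspb11, Pol II was listed at 2 of 7 (28.6%). All 4 Dnaja genes and all 3 Hsp90 genes had H3K4me3, H3K27ac and Pol II without H3K27me3, as had 8 of 14 Hsp70 and Hsp110 genes, 8 of 12 Dnajb genes and 18 of 28 Dnajc genes, against 40.1% of coding genes with any region.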
